A study of Panax ginseng with 12 samples.

Results

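The subject is the transcriptome of Panax ginseng embryogenic callus kept at 20 °C, the control condition of a study of cold. It was read from the 6 of 12 libraries labelled as control. Total RNA of the callus was sequenced as Illumina libraries after 2, 4 and 6 days at 20 °C, with 2 libraries for each day. The replicate numbers are 1 and 3 on day 2, 1 and 2 on day 4, and 2 and 3 on day 6. The other 6 libraries came from callus kept at 5 °C, with the same days and replicate numbers, and are used here beside the control values. The labels name no genotype, cell line, medium or transgene, and they do not say whether the libraries of a day came from separate cultures. A p-value here therefore rests on the differences among these libraries alone, which may be technical.

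Embryogenic callus is a dividing, mostly unorganized plant tissue grown on plant hormones, from which somatic embryos can form. Regulators known from such tissue include SERK receptor kinases, WOX homeobox proteins and AP2 proteins of the BABY BOOM and AINTEGUMENTA-LIKE kind. Ginseng tissue is also known for triterpene saponins, the ginsenosides, which are built from squalene through dammarenediol and protopanaxadiol.

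The deposited values are TPM, a share of all transcripts that is corrected for gene length, so genes can be compared within a library. The table has 44953 assembled genes, of which 28578 carry an annotation. Over the 6 control libraries, 41890 genes had a mean of at least 1 TPM, 18180 of at least 10, 1290 of at least 100 and 29 of at least 1000 TPM, and 293 were listed at 0 in every one. The median gene had 6.50 to 7.71 TPM in a library, and the 50 most abundant genes held 7.96 to 15.5% of the TPM, with the highest share in day 6 replicate 2. TPM values keep no read depth, so the depth behind a value is unknown. In bulk RNA, fewer cells of a type and less RNA per cell cannot be told apart. Library values below are given in the order day 2 replicates 1 and 3, day 4 replicates 1 and 2, and day 6 replicates 2 and 3.

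The most abundant annotated genes at 20 °C encoded parts of the ribosome, calcium and RNA-binding proteins, a metallothionein, a chaperone and enzymes of carbon and phenolic metabolism. The gene matched to ribosomal protein L5 of the large subunit led with 5660.3, 5643, 6235, 5043, 6147 and 5953 TPM. It was near the same level in all 6 libraries, with a mean of 5780.2 ± 436 TPM (SD, n = 6). The assembled gene is 3446 bases long, and the value is that of the whole assembled sequence. Calmodulin, a calcium sensor, followed at 4082, 5575, 3641, 4468, 5585 and 3910.4 TPM, and its highest values came from day 2 and day 6. The small-subunit gene RPS24A stood at 5116, 1781, 4938, 2645, 1881 and 5334 TPM. Each day had a high and a low library of RPS24A, and the days overlapped.

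A glycine-rich RNA-binding protein, of a family that binds and remodels RNA, was at 3668, 2051, 4097, 2758, 2514 and 3478 TPM. Metallothionein type 2, a small cysteine-rich protein that binds metal ions, was at 1951, 1379.9, 1109, 1366, 2145 and 5461 TPM, and day 6 replicate 3 stood above the other 5. HSC80, a cytosolic HSP90 chaperone, was at 1548, 3040.4, 1555, 2529.9, 1855 and 1496 TPM. It was highest in day 2 replicate 3 and day 4 replicate 2. In cold the same gene was lower (log2 difference -1.16, SE 0.30, adjusted p = 0.0198, limma with Benjamini-Hochberg adjustment over all genes), and 23.3% of all genes tested were called in that comparison of cold with control. GAPC2, the cytosolic glyceraldehyde-3-phosphate dehydrogenase of glycolysis, was at 949, 2242, 1381, 1414, 2188 and 1831 TPM, lowest in day 2 replicate 1.

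Enzymes and secreted proteins of defence and phenolic metabolism took many of the other places. Ribonuclease 2, a ginseng member of the pathogenesis-related PR-10 family, was at 1294, 2683, 1987, 2507, 3409 and 1349 TPM. ROMT, matched to an O-methyltransferase that acts on resveratrol in grapevine, was at 959, 1699.7, 639, 1309, 3841 and 1458 TPM, and day 6 replicate 2 was more than 2 times any other library. Peroxidase 42, a class III peroxidase, was at 779, 2278, 554, 2246, 1831 and 803 TPM. Day 2 replicate 3, day 4 replicate 2 and day 6 replicate 2 were high for this gene and the other library of each day was low. AZI1, a lipid transfer protein of the pEARLI1 kind, was at 554, 3144, 857, 2229, 642 and 452 TPM, with the same first pair of libraries high but day 6 replicate 2 low. An isoflavone reductase-like protein was at 677, 2213, 520.1, 811, 2798 and 892 TPM. Aleurain, a vacuolar thiol protease, ranged over 824 to 1809 TPM, and 3 genes matched to the 2-alkenal reductase DBR had means of 1103 to 1657 TPM.

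Several abundant entries carry names that say little of their function. TAR1, named after a yeast open reading frame that lies antisense in the ribosomal RNA genes, was at 2419.9, 2124, 1658, 3709, 5691 and 3544 TPM. For the genes matched to RAN1 and SALR, with means of 1404 and 1195 TPM, the annotation sources of the table disagree on the protein. For the gene matched to Nlrc3, with a mean of 4049 TPM, the second source names only a hypothetical protein. No role is given here for these genes. Of the 30 most abundant genes 8 had no annotation at all, and the most abundant of the whole table were among these: TRINITY_DN17400_c0_g2 at 11188, 9755, 5716, 4916, 21193 and 9363 TPM and TRINITY_DN29161_c0_g1 at 5930.0, 11035, 2106, 6470.1, 23227 and 6335 TPM. Both were highest in day 6 replicate 2. The first was lowest in both day 4 libraries, and the second in day 4 replicate 1 alone. No gene among the 20 most abundant annotated ones was called over the days.

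**Figure D1:**
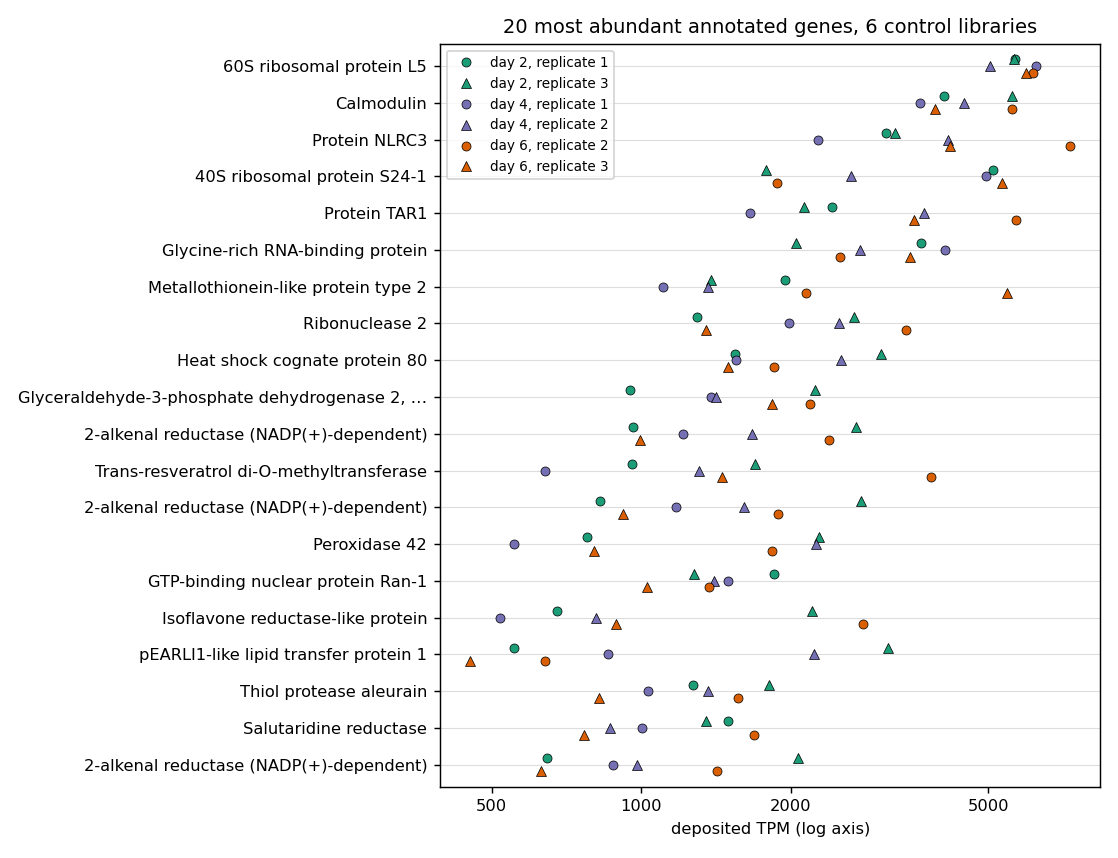
TPM on a log axis of the 20 most abundant annotated genes, with a point for each of the 6 control libraries (colour for the day, shape for the library of that day). RPL5 lies between 5043 and 6235 TPM in every library, while for peroxidase 42 and AZI1 the libraries of day 2 and of day 4 lie far apart.

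Of the TPM of a control library, 22.2% ± 0.760 (SD, n = 6) lay in the 35 gene lists described here. Cytosolic ribosomal proteins were the largest, with 275 genes and 5.34% ± 0.741 (SD, n = 6) of the TPM. Their share by library was 5.2, 5.68, 6.69, 4.85, 4.75 and 4.89%, highest in day 4 replicate 1, against 3.92 to 5.62% in the cold libraries. Ubiquitin and proteasome genes, which mark and break down proteins, held 2.19% ± 0.101 (SD, n = 6), with polyubiquitin UBI11 at the top (825, 757, 733, 637, 1402 and 1007 TPM for its most abundant gene). Heat shock proteins and chaperones held 1.64% ± 0.169 (SD, n = 6) at 20 °C and 0.954 to 1.24% in cold, so the ranges did not overlap. Calreticulin, a calcium-binding chaperone of the endoplasmic reticulum, was at 565, 602, 765, 715, 557 and 567 TPM in control and lower in cold (log2 difference -0.99, SE 0.24, adjusted p = 0.0145, limma). Translation factors held 1.4% ± 0.102 (SD, n = 6).

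By summed share, the citric acid cycle and mitochondrial respiration were among the steadier of the gene lists. Genes of the citric acid cycle and mitochondrial respiration held 1.31% ± 0.0716 (SD, n = 6), with isocitrate dehydrogenase ICDH-1 at 806, 692, 529, 588, 796 and 958 TPM. The mitochondrial ATP synthase subunit beta, ATPB, was at 247, 337, 329, 317, 351 and 359.6 TPM. Antioxidant enzymes held 0.598 to 0.641% of the TPM in all 6 libraries, the narrowest relative range of any list, although single members differed by library, among them the cytosolic superoxide dismutase SODCC at 154, 363, 159, 246, 309 and 309 TPM. By the KEGG pathway names in the table, oxidative phosphorylation held 1.32 to 1.40%. Ribosome (6.35 to 8.4%), protein processing in the endoplasmic reticulum (2.85 to 3.37%) and RNA transport (2.68 to 3.18%) were the largest pathways.

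Glycolysis and fermentation varied more, at 0.929, 1.45, 1.04, 0.964, 1.27 and 1.11%, and it was lowest in day 2 replicate 1. Its most variable member of at least 20 TPM was alcohol dehydrogenase, the last enzyme of ethanol fermentation, at 58.1, 878, 91.1, 121, 405 and 135 TPM, with its high values in day 2 replicate 3 and day 6 replicate 2. Sucrose and starch metabolism held 0.191% ± 0.0203 (SD, n = 6), led by sucrose synthase isoform 1 at 78.6, 146, 48.4, 137, 129.9 and 71.2 TPM. The KEGG pathways of fatty acid metabolism (0.825 to 1.5%) and phenylpropanoid biosynthesis (0.737 to 1.36%) differed by 1.82 and 1.85 times between the lowest and the highest library. That was more than the 1.06 times of oxidative phosphorylation.

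**Figure D2:**
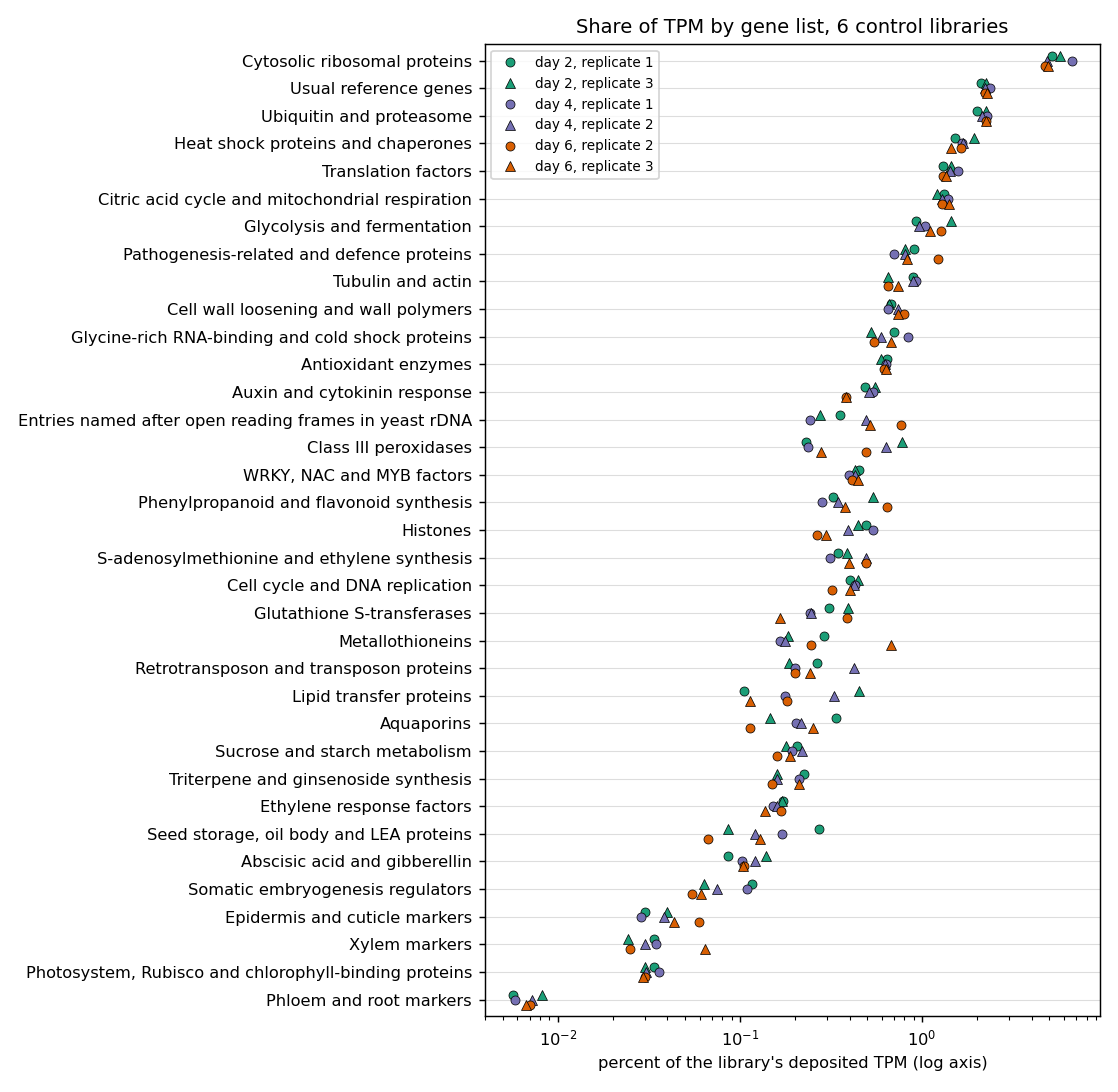
Share of each control library's deposited TPM held by each of the 35 gene lists, on a log axis, with a point for each library. The antioxidant enzymes lie between 0.598 and 0.641%, while the class III peroxidases spread from 0.231 to 0.777% and libraries of the same day lie apart.

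Markers of the labelled tissue were looked up by name. Of 16 genes matched to somatic embryogenesis regulators, all had a mean of at least 1 TPM and 6 of at least 20 TPM. Of all 44953 genes, 41890 had a mean of at least 1 TPM and 9778 of at least 20 TPM. Since 18 of 19 xylem markers also reached 1 TPM, that level sets no tissue apart. WOX8, a homeobox factor of the early embryo in Arabidopsis, was at 728, 193, 657, 342, 126 and 290.2 TPM and held 53.3% of the list's TPM. Each day had libraries far apart for WOX8, and the days overlapped. SERK1, a receptor kinase that marks embryogenic cells in carrot and Arabidopsis, was steady at 136, 164, 126, 121, 164 and 108 TPM. Cold libraries had 83.7 to 118 TPM of SERK1, a called difference (log2 difference -0.50, SE 0.16, adjusted p = 0.0467, limma). AIL7, an AINTEGUMENTA-LIKE factor, was at 40.6, 58, 69.1, 41.8, 34.1 and 20.1 TPM, and WOX2 was at 19.9, 25.2, 15.5, 21.8, 20.5 and 29.7 TPM. No gene was matched to LEC1, LEC2 or FUS3, the seed regulators that can start somatic embryos in Arabidopsis, which says only that no best hit carried those names.

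Markers of other tissues held small shares of the TPM, and so did the somatic embryogenesis regulators, at 0.0544 to 0.116%. Without WOX8 these regulators held 0.0289 to 0.0424%, within the ranges of the xylem and of the epidermis markers. The shares alone therefore do not set the labelled tissue apart. Of 40 genes of photosystems, Rubisco and chlorophyll-binding proteins, the sum held 0.0293 to 0.036% of the TPM, and the only member with a mean of at least 20 TPM was the plastid-encoded psbB of photosystem II at 91.1, 121, 97.2, 102, 72.5 and 49.9 TPM. Xylem markers held 0.0337, 0.0243, 0.0348, 0.0301, 0.025 and 0.0643%, led by the vessel protease XCP2 at 136, 21.5, 80.7, 34.2, 39.4 and 316 TPM. Day 6 replicate 3 was the highest library for both. CESA8, a cellulose synthase of secondary walls, was at 33.5, 23.6, 43, 46.1, 24.1 and 44.8 TPM. Epidermis and cuticle markers held 0.0303, 0.0396, 0.0286, 0.0382, 0.0593 and 0.0435%, led by the wax enzyme CER1 at 103, 140.1, 62, 98.1, 358 and 159 TPM. Of 12 phloem and root markers none reached a mean of 20 TPM. Seed storage, oil body and LEA proteins held 0.141% ± 0.0738 (SD, n = 6), mostly from dehydrins, proteins that protect cells in drought and cold. Oleosin OL2, a coat protein of oil bodies, stood at 145, 1.06, 7.3, 0.84, 0.42 and 30.1 TPM, so a level above 8 TPM was seen in 2 libraries of different days. The 12S globulin CRD, a seed storage protein, was at 69.2, 91.3, 79.2, 65.8, 46.1 and 62.2 TPM.

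Genes of triterpene and ginsenoside synthesis held 0.186% ± 0.0324 (SD, n = 6) of the TPM, from 48 genes of which 22 had a mean of at least 20 TPM. Protopanaxadiol 6-hydroxylase, the cytochrome P450 that turns protopanaxadiol into protopanaxatriol, led at 744, 325, 446, 258, 331 and 553 TPM. Its values were higher in the first library of days 2 and 4 and in the second of day 6. The isopentenyl-diphosphate isomerases that interconvert the 5-carbon precursors were steadier, with IPI1 at 138, 131, 138, 111, 112 and 139 TPM and IPI2 at 92.3 to 147 TPM. PPDS, the dammarenediol 12-hydroxylase that makes protopanaxadiol, was the most variable of the list at 25.9, 10.8, 45.2, 10.3, 1.44 and 48.2 TPM, and was lowest in day 6 replicate 2. None of the 48 genes had an unadjusted F test p under 0.05 over the days, against 3.67% of all genes tested. For a list of this size that is near the background.

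Class III peroxidases, which oxidize phenolics in the cell wall, held 0.231, 0.777, 0.237, 0.633, 0.495 and 0.28%. Besides peroxidase 42, the cationic peroxidase PNC1 was at 269, 2037, 466, 1458, 934 and 382 TPM, high in day 2 replicate 3 and day 4 replicate 2. Phenylpropanoid and flavonoid synthesis held 0.417% ± 0.14 (SD, n = 6), and its most variable member CCR1, the cinnamoyl-CoA reductase that leads to lignin units, was at 17.8, 530.4, 145, 183, 467 and 43.2 TPM. Both day 2 and day 6 thus held a library above 400 TPM and another below 50 TPM for CCR1. Defence proteins held 0.901, 0.801, 0.697, 0.806, 1.22 and 0.823%, and the high value of day 6 replicate 2 went with ribonuclease 1, of the same PR-10 family, at 422, 464, 382, 435, 2736 and 269.8 TPM. Aquaporins, channels for water, held 0.212% ± 0.0795 (SD, n = 6), led by the vacuolar TIP1-1 at 1103, 116, 342, 193, 99.2 and 516 TPM.

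Steadiness was described by the SD of log2(TPM + 1) over the 6 control libraries, for the 2563 genes with an informative name and a mean of at least 50 TPM. The median SD was 0.33 and the 5th to 95th percentile ran from 0.13 to 0.99. In 1535 of these genes (59.9%) the highest library was less than 2 times the lowest, and in 70 it was more than 10 times. The 10 steadiest genes had SDs of 0.052 to 0.075. NPP5, a catalytic subunit of protein phosphatase PP2A, was the steadiest at 91 to 98.4 TPM. AP2M, the medium subunit of the AP-2 complex of clathrin coats, was at 54.2 to 60.6 TPM, and the receptor kinase ERECTA, which shapes plant organs, was at 52.5 to 59.9 TPM. The RNA-binding protein RggA was the most abundant of the 10 at 271 to 309 TPM. The others were the quinone oxidoreductase TP53I3, the phosphatase FYPP3, the receptor-associated protein strap, the glucosidase subunit PSL4, the respiratory complex I subunit At4g02580 and a methyltransferase of tocopherol synthesis.

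Steady over days at 20 °C did not mean equal between temperatures. Of the 10 steadiest genes 4 were lower in cold, NPP5 (log2 difference -0.74, SE 0.17, adjusted p = 0.0127), At4g02580 (log2 difference -0.60, SE 0.14, adjusted p = 0.0125), the tocopherol methyltransferase (log2 difference -0.56, SE 0.14, adjusted p = 0.0194) and PSL4 (log2 difference -0.48, SE 0.14, adjusted p = 0.0321), all by limma with Benjamini-Hochberg adjustment. Among the 100 steadiest genes 26% were called between temperatures, against 26.1% of the 2563 genes described and 23.3% of all genes tested, which is near the background. The 100 steadiest were 3.9% of the 2563 genes. Of the lists' genes at this level, they held 9 of 108 of ubiquitin and proteasome and 7 of 80 of the citric acid cycle and respiration. They held 3 of 56 translation factors, near that share, and 3 of 173 ribosomal proteins, below it.

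Genes often used to scale quantitative PCR were not uniformly steady. Of 67 such genes with a mean of at least 50 TPM, an elongation factor 1-alpha gene (symbol A1) was the steadiest at 599, 699.8, 588, 642, 631 and 661 TPM, rank 34 of 2563 by SD, yet it was lower in cold (log2 difference -0.79, SE 0.21, adjusted p = 0.0208, limma). Actin ACT7 was at 608, 601, 748, 767, 541 and 598 TPM, rank 459. The initiation factor 4A-15 gene ranged over 279 to 365 TPM, rank 238, and the PP2A scaffold subunit PP2AA2 over 95.5 to 148 TPM, rank 736. The most abundant GAPC2 gene ranked 1906 and another GAPC2 gene ranked 2311, with 356, 1263, 623, 609, 1466 and 927 TPM. The most abundant polyubiquitin gene UBI11 ranked 1676, and another UBI11 gene, at 511 to 709.8 TPM, ranked 298, so genes that share a symbol differed in steadiness.

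The 10 most variable named genes had SDs of 2.35 to 4.07. Lichenase GN1, a beta-glucanase of the defence kind, was at 579, 15.5, 1.96, 8.7, 4.88 and 172 TPM, with high values in a library of day 2 and of day 6. The aspartyl protease At4g16563 was at 315, 0.8, 216, 55.1, 3.46 and 65 TPM, so day 2 held both the highest and the lowest value. AGL29, a MADS-box protein, was at 83.8, 1.59, 132, 50.4, 1.17 and 80.7 TPM. Specific abundant protein 1, a name from the annotation, was at 569.9, 335, 715, 162, 4.1 and 1295 TPM, lowest in day 6 replicate 2 and highest in the other library of that day. GDPD1, a plastid phosphodiesterase, was the best hit of 3 assembled genes, all highest in day 4 replicate 1, the first at 143, 1.57, 493, 30.9, 21.4 and 15.8 TPM. Reads of near-identical genes can be split between such entries, so the level of each is uncertain. Kirola, a kiwifruit protein of the Bet v 1 family, was at 185, 15.4, 18.5, 55.6, 0.99 and 106 TPM and higher in cold (log2 difference 3.41, SE 0.91, adjusted p = 0.0214, limma), the only gene of the 10 called there.

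The first of these 10 by SD, an entry whose best hit is the A' protein of an enterobacterial phage, was at 994 TPM in day 2 replicate 1 and listed at 0 in the 11 other libraries. It was not tested, since it passed 1 TPM in only 1 library. The 100 most variable genes, 3.9% of the 2563, held 5 of the 18 defence genes at this level, 4 of 9 class III peroxidases, 4 of 37 cell wall genes, 3 of 45 of glycolysis and fermentation and 3 of 3 retrotransposon proteins. No ubiquitin, translation or respiration gene of the lists was among them. Of these 100 the highest value lay in day 6 replicate 2 for 27 genes, in day 4 replicate 2 for 5 and in each of the other libraries for 17. Over all 2563 genes the counts of highest values were also unequal, at 353, 516, 600, 195, 460 and 439 in the library order above, fewest in day 4 replicate 2. The 2563 genes were admitted by their mean, so a high value in a single library can both admit a gene and make it variable. The A' entry was admitted in this way. A gene matched to the Copia retrotransposon protein was at 62.5, 49.9, 59.7, 403, 7.94 and 38.6 TPM. Another was at 43.9, 24.5, 31.4, 337, 4.76 and 28.9 TPM. The 3 of 3 retrotransposon proteins are therefore not read as a trait of that class.

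**Figure D3:**
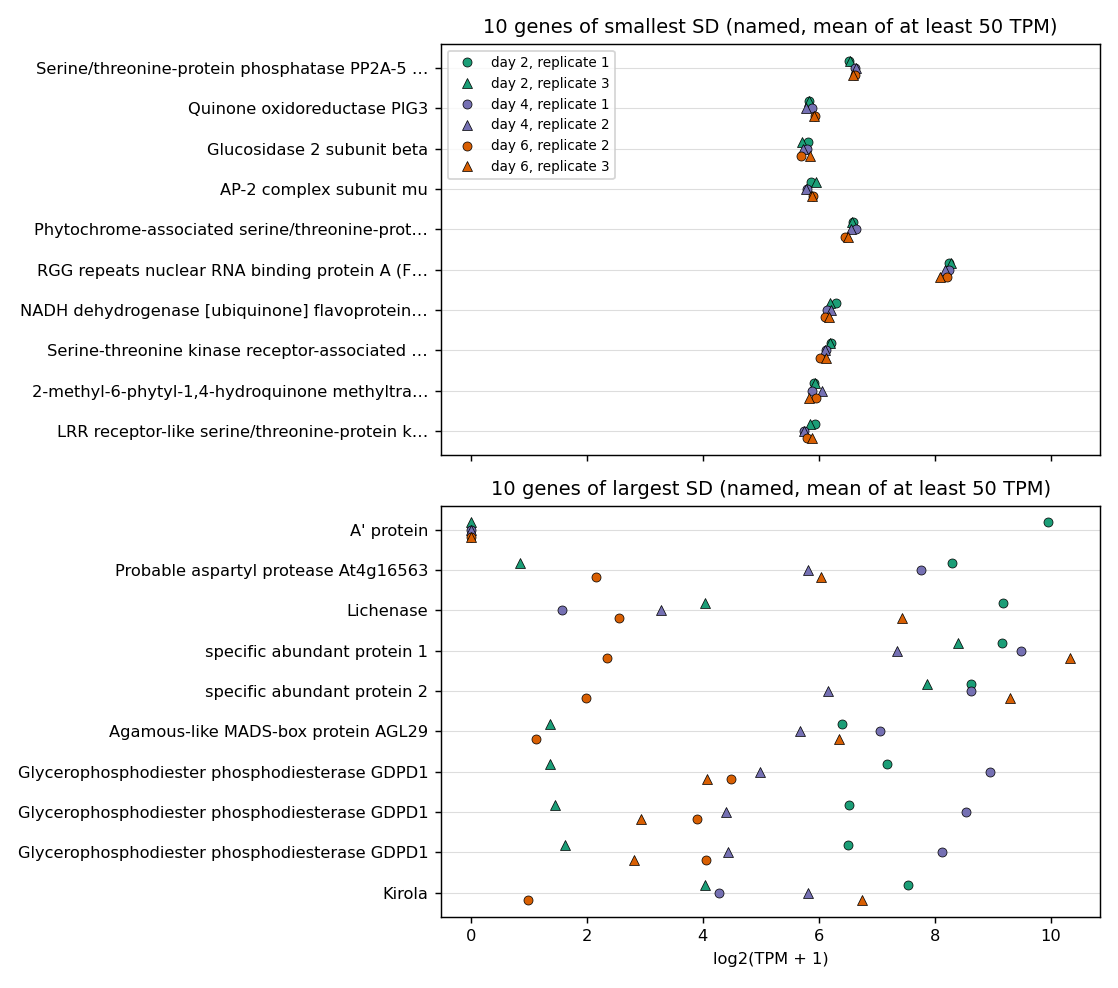
Values on the log2(TPM + 1) scale of the 10 steadiest genes (upper panel) and the 10 most variable genes (lower panel) of those with an informative name and a mean of at least 50 TPM, a point for each control library. The points of the steadiest genes lie on top of each other, with SDs of 0.052 to 0.075, while the variable genes spread over many log2 units and the libraries of a day do not lie together.

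Libraries of the same day differed about as much as libraries of different days. Over the 9778 genes with a mean of at least 20 TPM, the median absolute log2 difference between libraries was 0.39 within a day and 0.35 between days. The correlation of log2(TPM + 1) over all genes, which are not independent replicates, was 0.812 for the pair of day 2, 0.881 for day 4 and 0.849 for day 6, against 0.797 to 0.896 for libraries of different days. Among the 2563 genes above, the median SD within a day was 0.33 and the median SD of the 3 day means was 0.19. These are unlike measures, since a mean of 2 libraries varies less than a single library even without a change over days.

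A principal component analysis of these 9778 genes over the 6 control libraries describes how they lay apart. It was chosen after the values were seen and carries no test. The first axis held 50.1% of the variance. Its scores were 44.4, -41.1, 27.7, -1.17, -49.4 and 19.5, so each day had libraries far apart on it, and days overlapped. The second axis held 18.4%, with scores of 10, -18.5, -18.3, -24.2, 25 and 26, and on it both day 6 libraries lay above all 4 earlier ones. The 6 cold libraries, placed on the same axes, scored 9.13 to 26.1 on the first and 0.99 to 12.3 on the second. The loading of a gene on the first axis had a Spearman correlation of -0.0093 with gene length and -0.0987 with the mean level over these genes.

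Histone, tubulin, actin and triterpene synthesis genes lay mostly toward day 2 replicate 1 on the first axis. All 6 genes of at least 20 TPM in the mixed list of seed storage, oil body and LEA proteins were fitted higher there than in day 6 replicate 2, by a median log2 difference of 1.75, and 33 of 39 histone genes by 0.56 and 48 of 58 tubulin and actin genes by 0.53, against 57.8% of all 9778 genes and a median of 0.11. Triterpene and ginsenoside genes were fitted higher there in 19 of 22, by a median of 0.31, and usual reference genes in 64 of 91, also by 0.31. Osmotin-like protein OSML13, a defence protein of the thaumatin family, was at 1193, 59.8, 138, 106, 21.8 and 234 TPM. The kinesin KIN14R, a motor on microtubules, was at 837, 35.4, 109, 75.6, 9.75 and 36 TPM. Both had their highest value in day 2 replicate 1 and their lowest in day 6 replicate 2.

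Single genes with high loadings lay toward day 6 replicate 2 and day 2 replicate 3, named here for their place on this axis. FAD2, the delta-12 desaturase that makes linoleic acid, was at 4.1, 114, 33.1, 74.1, 675 and 33.9 TPM. The amino acid transporter LHT2 was at 4.76, 166, 30.7, 127, 169 and 17.4 TPM. NRT3.1, a partner of high-affinity nitrate transporters, was at 22.7, 771, 88.9, 396, 333 and 98 TPM. In each of these 3 genes day 2 replicate 1 was the lowest and the same day's other library was among the highest. Of the class III peroxidases 4 of 10, of the phenylpropanoid and flavonoid genes 15 of 33, of the S-adenosylmethionine and ethylene genes 10 of 29 and of the glutathione S-transferases 5 of 18 were fitted higher toward day 2 replicate 1, against 57.8% of all genes. For heat shock proteins and chaperones it was 39 of 104. Ribosomal proteins were split, with 96 of 211 and a median of -0.04.

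Other values moved with this axis. The xylem protease XCP2 and the embryo factor WOX8, whose values are given above, were higher in day 2 replicate 1, day 4 replicate 1 and day 6 replicate 3 than in the other libraries of those days. The rest of their lists did not follow. Without XCP2 the xylem markers held 0.0189, 0.0219, 0.026, 0.0263, 0.0207 and 0.0294% of the TPM, and without WOX8 the somatic embryogenesis regulators held 0.0369, 0.0424, 0.038, 0.0366, 0.0407 and 0.0289%. Of the members of at least 20 TPM, 3 of 5 xylem markers and 2 of 6 embryogenesis regulators were fitted higher toward day 2 replicate 1. The 50 most abundant genes held 9.74, 11.9, 7.96, 9.32, 15.5 and 10.1% of the TPM. Whether tissue make-up, RNA or library preparation had a part in the axis was not tested.

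**Figure D4:**
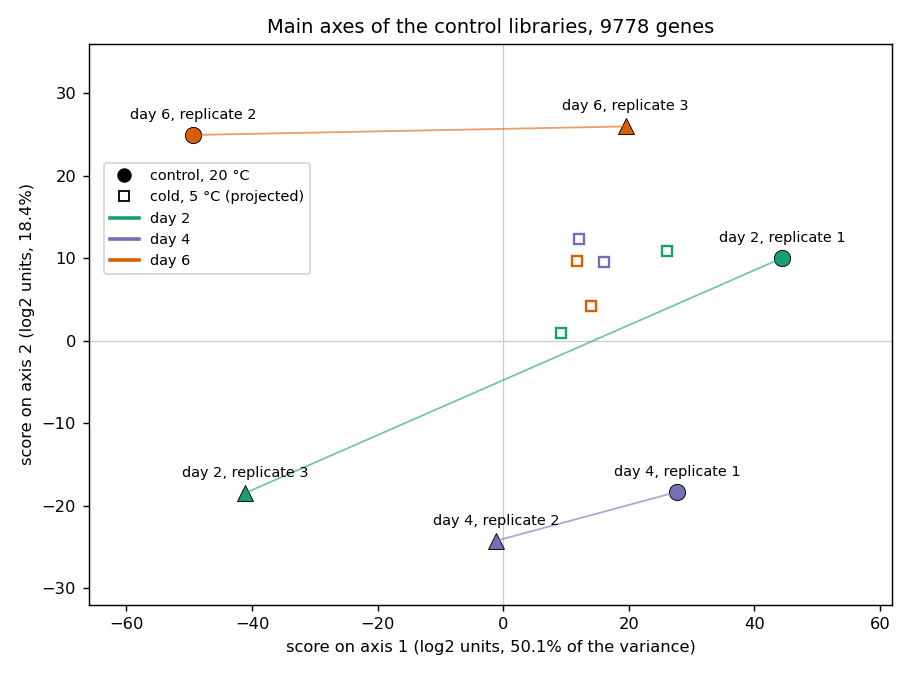
Scores of the libraries on the first and second principal axes of 9778 genes in the 6 control libraries (filled points, lines join the libraries of a day), with the 6 cold libraries placed on the same axes as open squares. Libraries of a day lie apart along the first axis, which holds 50.1% of the variance, and the day 6 libraries lie highest on the second.

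No gene passed the test of a change over days 2, 4 and 6 at 20 °C. Of 44600 genes tested with limma, 0 were called by the F test at a false discovery rate of 0.05 (0% of those tested), while 1637 had an unadjusted p under 0.05, which is 3.67%. The lowest adjusted p was 0.216. Day 4 against day 2 called 0% (1049 unadjusted), day 6 against day 4 called 0% (2121 unadjusted) and day 6 against day 2 called 0% (1851 unadjusted). The median SE of a log2 difference between days was 0.48, above the median absolute difference of 0.26, 0.34 and 0.31 in these 3 comparisons. With a pseudocount of 5 the F test called 2 genes, and without day 2 replicate 1 it called 6. In the 6 cold libraries the same F test called 268 genes, or 0.601%.

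The genes of lowest p are given as values, since none was called. They were led by 2 genes matched to CYP71D312, a cytochrome P450, the first at 36.2, 23.4, 4.16, 2.54, 73.4 and 42.7 TPM (limma F test with Benjamini-Hochberg adjustment, adjusted p = 0.216) and the second at 48, 29.6, 6.94, 3.88, 83.3 and 43.5 TPM (limma F test with Benjamini-Hochberg adjustment, adjusted p = 0.216). Both had their lowest values on day 4, with no overlap with the other days. A mannose/glucose-specific lectin was at 65.4, 49.7, 25.9, 24.3, 5.11 and 5.93 TPM, and its 3 days did not overlap, with the highest values on day 2 and the lowest on day 6. CMT3, a DNA methyltransferase that maintains CHG methylation, was at 9.77, 10.1, 9.15, 9.67, 1.53 and 2.54 TPM, and the day 6 libraries lay below the 4 earlier ones.

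Higher on day 6 than in any earlier library were RD21B, a cysteine protease, at 22.7, 20.4, 23.7, 16.3, 61.9 and 71 TPM, and the polyol transporter PLT1 at 28, 37.6, 44, 41.8, 124 and 93.4 TPM. The cytochrome P450 gene CYP82D47 at 39.3, 47.6, 28.1, 32.9, 80.8 and 91.6 TPM and the germin-like protein At3g10080 at 32.3, 33.7, 13.8, 20.7, 57 and 50.6 TPM were also highest on day 6. RD21B (log2 difference 1.36, SE 0.18, adjusted p = 0.00131), PLT1 (log2 difference 1.05, SE 0.17, adjusted p = 0.00287) and CYP82D47 (log2 difference 0.65, SE 0.15, adjusted p = 0.0119) were higher in cold than at 20 °C by limma, as a mean of the 3 days. On day 6 alone the cold libraries were near the control ones. They had 62.7 and 57.7 TPM of RD21B, 97.45 and 107 TPM of PLT1, and 90.4 and 86 TPM of CYP82D47. CYP82D47 in cold was at 33.4 and 26.6 TPM on day 2, below control, and at 178 and 158 TPM on day 4. HIPP05, a protein with a heavy-metal-binding domain, was at 86.3, 90.9, 27.9, 28.2, 38.7 and 25 TPM, where day 2 lay above both later days. These 10 genes, which include an entry named Defensin-like protein 1, had adjusted p-values of 0.216 to 1.

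Many histone and DNA replication genes had their lowest values on day 6. In 33 of 55 histone genes (60%) both day 6 libraries lay below all 4 libraries of days 2 and 4, against 8.17% of all genes tested. None was called, and 10 of 55 had an unadjusted F test p under 0.05, all with day 6 below day 2, where 3.67% of all genes tested had such a p in either direction. The median log2 difference of day 6 from day 2 was -0.64 over the histones and -0.03 over all genes tested. Their summed share was 0.495, 0.448, 0.538, 0.392, 0.265 and 0.295%. Because histone copies are close in sequence, reads may have been divided between them. This count, and the genes named from it below, were chosen after the values were seen.

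Single histone genes show the size of the difference. Histone H2B (symbol HIS2B, the most abundant histone gene) was at 632, 453, 664, 427, 419 and 362 TPM, and the most abundant histone H4 gene was at 348, 306, 331, 228, 123 and 145 TPM. Another H4 gene was at 128, 61, 116, 70, 20.6 and 24.8 TPM, and a histone H1 gene, the linker of nucleosomes, was at 66, 102, 68.3, 50.4, 26.1 and 30.9 TPM (log2 difference -1.50, SE 0.41 for day 6 against day 2, limma F test with Benjamini-Hochberg adjustment, adjusted p = 1). The H3.3 gene HTR4, a variant laid down outside replication, was at 190.5, 231, 276, 178, 178 and 203 TPM, and its days overlapped. In all but HTR4 of these 5 genes day 6 lay below the earlier days without overlap.

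Of 120 tested genes of the cell cycle and DNA replication, 36 (30%) had both day 6 libraries below the 4 earlier ones and 0 had both above, where all genes gave 8.17% and 5.54%. MCM6, a subunit of the replicative helicase, was at 61.8, 57.2, 60, 42.7, 27.7 and 23.9 TPM (log2 difference -1.18, SE 0.29, limma F test with Benjamini-Hochberg adjustment, adjusted p = 1). The helicase subunit MCM5 was at 40, 37, 37.1, 42.6, 21.8 and 21 TPM and MCM4 was at 29.1, 32, 39.9, 43.2, 22.2 and 18.6 TPM. Proliferating cell nuclear antigen, the sliding clamp of DNA polymerase, was at 10.9, 11.5, 10.2, 10.8, 3.73 and 5.91 TPM, RNR1, the large subunit of ribonucleotide reductase, was at 18.1, 22.5, 27.6, 20.6, 12.7 and 9.77 TPM, and cyclin CYCD3-2, which drives entry into S phase, was at 23.6, 27.6, 25.9, 22.7, 9.1 and 11.7 TPM. For all 6 of these genes the day 6 values lay below every earlier one. The mitotic cyclin CYCB1-2, the most abundant gene of the list, did not share this order at 206, 277, 206, 203, 262 and 280.4 TPM.

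The rule gave other shares in other lists. Cytosolic ribosomal proteins had 58 of 275 genes below (21.1%) and 4 above, with a median log2 difference of day 6 from day 2 of -0.24. With median ratio scaling between libraries the count for ribosomal proteins was 32 (11.6%), that for histones 31 (56.4%), that for the cell cycle 29 (24.2%) and that of all genes 6.76%. With day 6 replicate 3 left out, so that replicate 2 stood alone for the day, the rule held for 41 histone, 73 cell cycle and 109 ribosomal genes and 30.6% of all genes. With replicate 2 left out it held for 37, 50 and 120 genes of these lists and 16.1% of all genes, and without day 2 replicate 1 it held for 90 ribosomal genes. Auxin and cytokinin genes had 21 of 185 below (11.4%), against 8.17% of all genes. Their median log2 difference of day 6 from day 2 was -0.34, against -0.03 over all genes tested, and 51 of 185 were higher on day 6. Their summed share was 0.489, 0.555, 0.538, 0.509, 0.383 and 0.383%. None was called, and 12 of 185 had an unadjusted F test p under 0.05, all with day 6 below day 2, where 3.67% of all genes tested had such a p in either direction. Single members with low p-values in this list differed in which day stood apart. The auxin importer LAX2 was at 99.5, 41.4, 32.8, 36.2, 19.6 and 14.8 TPM, IAA8, a repressor of auxin response, at 18.9, 28.2, 29.7, 29.3, 7.65 and 11.4 TPM and ARF5, an auxin response factor of embryo patterning in Arabidopsis, at 18, 27.6, 37.9, 27.9, 13.2 and 13.8 TPM. Day 6 was lowest without overlap in these 3 genes. A gene matched to AHK4, a cytokinin receptor, was at 74.8, 52, 35, 17.8, 33.3 and 21.8 TPM, with both day 2 libraries above the 4 later ones. Cell wall genes had 18 of 198 below (9.09%) and 13 above (6.57%), near the 8.17% and 5.54% of all genes. Among single members, picked after their values were seen, an extensin, a structural wall protein, was at 190.0, 255, 136, 283, 780.4 and 872 TPM. Expansin EXPA16, which loosens walls, had its lowest values on day 6, at 60.6, 17.8, 27.8, 20.4, 8.87 and 9.66 TPM.

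The cold libraries gave lower counts for histones and ribosomal proteins, and a similar count for the cell cycle. In cold, both day 6 libraries lay below all 4 earlier cold libraries in 5 of 55 histone genes (9.09%) and in 38 of 120 cell cycle genes (31.7%), against 11.7% of all genes tested. For ribosomal proteins it was 12 of 275 (4.36%). The difference in these counts between temperatures was not tested. Gene by gene, the change over days differed between temperatures in 7 genes by limma, 0.0157% of those tested, and none of the 7 was in these 3 lists.

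**Figure D5:**
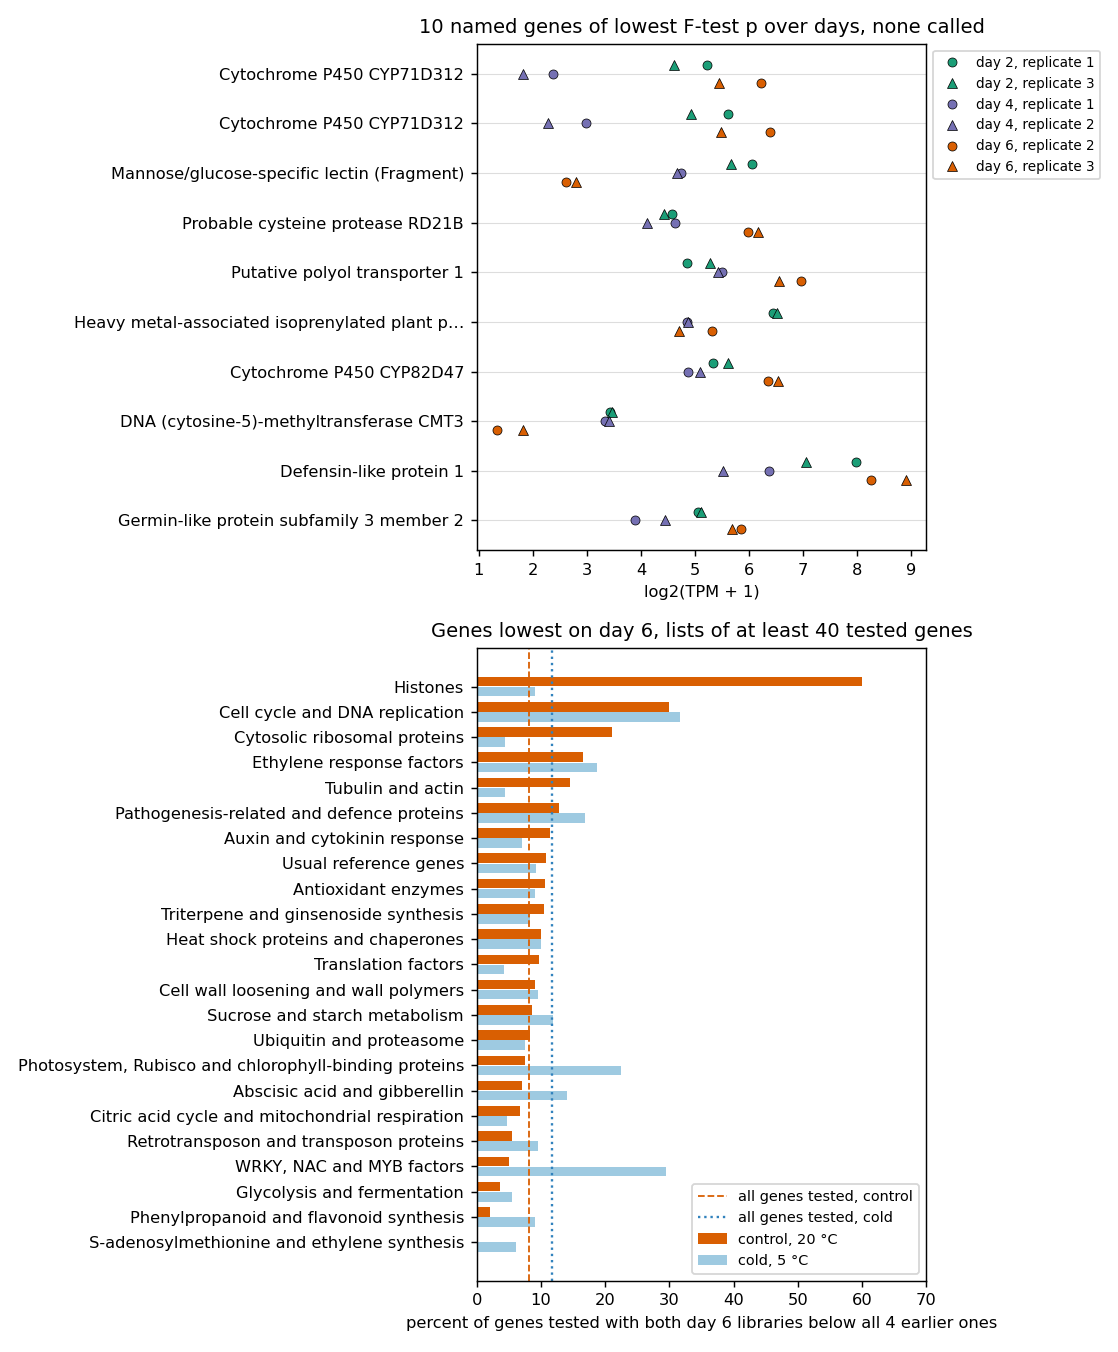
Upper panel, values on the log2(TPM + 1) scale of the 10 named genes of lowest F test p over days, a point for each control library, none called. Lower panel, percent of tested genes of each list whose day 6 libraries both lie below all 4 earlier libraries of the same temperature, with dashed and dotted lines at 8.17% and 11.7% for all genes in control and cold. Histones stand at 60% in control and 9.09% in cold.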

How the data were processed

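RNA of ginseng callus was measured in 12 libraries, of which the 6 controls are described and all 12 entered the fit. The authors deposited TPM values per assembled gene. The unit was read from the values, and whether they were scaled further is not stated. Each control library's deposited TPM sums to 900400 to 926000, and every gene reaches at least 6.01 TPM in some library. Per the submitters' processing notes cutadapt, FastQC, Salmon and edgeR were used, with their roles, versions and the assembly settings not given in the sources used here. Trinity identifiers, a length and best protein hits come with each gene, per the file headers, and a symbol taken from a best hit may stand for several genes.

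The members and lists were chosen with earlier results of these data known. The 35 lists are word patterns on the annotation. They were trimmed of false matches after the matched names were read, and 2 lists were added later.

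Values were taken as log2(TPM + 1), after dropping genes that reached 1 TPM in fewer than 2 libraries. limma 3.58.1 in R 4.3.3, with version 1.17.8 of the data.table package, was fitted to the 6 groups of temperature and day with a variance trend. It had 6 residual degrees of freedom and a prior of 5.34. P-values were adjusted by Benjamini-Hochberg over 44600 genes at a false discovery rate of 0.05. Cold against control is the mean of the 3 daily differences. The scripts were tested on simulated data. List shares, spreads, ranks and the principal axes were computed in python 3.11.15 with numpy 2.4.6 and pandas 2.3.3, and drawn with matplotlib 3.10.9. They have no test.

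Named genes are the 20 most abundant annotated genes, the 3 most abundant and the most variable member (mean of at least 20 TPM) of each list, the 10 steadiest and 10 most variable with an informative name and at least 50 TPM, and the 10 informative genes of lowest F test p with at least 5 TPM in a day mean. The principal axes, the count of genes lowest or highest on day 6, the reference genes, the most abundant genes without annotation and the genes named from these were chosen after the values were seen. No read counts are held, so no count model, depth or interval is given. Alternatives were other pseudocounts, filters and scalings, the 6 controls alone, a replicate block and leaving out each control library.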

Additional observations from a re-analysis of the deposited data

Results flagged for a closer look

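Of 85 groups of 6 control values examined, 11 had a library far from the other 5, by a gap rule that chance meets in about 1 of 20 groups not chosen for their values. That rate does not apply to this count, since the groups included the 10 most variable genes, which gave 5 of the 11, and lists that hold genes examined singly. Day 6 replicate 3 stood apart with 5461 TPM of metallothionein type 2 (pKIWI504), where the others had 1109 to 2145 TPM. It also had the highest metallothionein share, 0.673% against 0.167 to 0.288%, a list led by the same gene, and the highest xylem marker share, 0.0643% against 0.0243 to 0.0348%, which without XCP2 was 0.0294% against 0.0189 to 0.0263%. Day 6 replicate 2 stood apart with 3841 TPM of ROMT, against 639 to 1700 TPM, and with the lowest cell cycle and DNA replication share, 0.320% against 0.400 to 0.443%.

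Day 2 replicate 1 had 994 TPM of the A' protein entry, listed at 0 in the others, and 579 TPM of lichenase GN1 against 1.96 to 172 TPM. Day 4 replicate 1 had 493, 370 and 279 TPM of the 3 GDPD1 genes, whose other values stayed at or below 143, 91.0 and 89.4 TPM. Day 4 replicate 2 had the highest share of retrotransposon and transposon proteins, 0.422% against 0.186 to 0.264%. The leading gene there, a Pol polyprotein of the TNT kind, was at 74.5, 49.4, 78.9, 504, 10.9 and 48.8 TPM, and it was higher in cold (log2 difference 3.12, SE 0.45, adjusted p = 0.00176, limma with Benjamini-Hochberg adjustment).

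In 7 genes the change over days differed between 20 °C and 5 °C by limma. ACA12, a calcium pump of the plasma membrane, was at 12.7, 20.2, 14.6, 30.6, 78.9 and 40.7 TPM in control and 18.5 to 252 TPM in cold (adjusted p of the difference 0.0457). The calcium-binding protein CML28 was at 11, 12.7, 8.37, 8.04, 30.4 and 16 TPM in control and 16.9 to 166 TPM in cold (adjusted p 0.0397). The protein phosphatase 2C gene At3g17090 was at 13.5 to 22.3 TPM in control and 15.7 to 285 TPM in cold (adjusted p 0.0397). CBSX5, a protein with CBS domains, was at 28.8 to 53.2 TPM in control and 12 to 118 TPM in cold (adjusted p 0.0342). An uncharacterized protein, LOC108200000, had an adjusted p of 0.0457. TRINITY_DN18159_c5_g3 and TRINITY_DN18933_c3_g1, without annotation, had adjusted p-values of 0.0218 and 0.0160.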

How the results depend on the processing

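Calls over days stayed at 0 under most alternatives. With a pseudocount of 5 the F test called 2 genes, day 4 against day 2 called 2 and day 6 against day 4 called 1, and with a pseudocount of 0.1 day 6 against day 2 called 1. Leaving out each control library in turn, which leaves a lone library of its day that is assumed to vary like the other groups, gave 0 to 6 genes by the F test, 0 to 7 for day 4 against day 2, 0 to 3 for day 6 against day 4 and 0 to 2 for day 6 against day 2. The largest counts came without day 2 replicate 1, day 2 replicate 1, day 4 replicate 1 and day 2 replicate 3, in that order. In the 6 control libraries alone 0 of 42431 genes were called, with 1246 at an unadjusted p under 0.05. The replicate numbers share no stated source, and the deviations of same-numbered libraries correlated at 0.232, 0.218 and -0.452. With the number as a replicate block, 1 gene was called for day 6 against day 4 and 0 in the other 3 tests. The 10 genes of lowest p stayed uncalled in all 140 refits that gave a value. The summed list share was 23.4% without genes under 300 bases. The median spread stayed at 0.31 to 0.34 and the first axis at 46.9 to 57.2% of the variance. With median ratio scaling, 6 of the 10 steadiest genes remained among the 100 steadiest. The count of genes lowest on day 6 was 31 to 41 histones under all 8 alternatives, added after the values were seen. Leaving out each library gave 39 to 73 cell cycle genes, 58 to 120 ribosomal genes and 4631 to 13655 of all genes, and median ratio scaling gave 32 ribosomal genes. The highest of these counts came without a day 6 library, which turns the rule into a comparison of a single library. The causes of these shifts were not tested. TPM keep no depth, so the precision of low genes is not known.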

Other observations

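Among regulators not described above, the ethylene response factor RAP2-2 was at 208, 232, 171, 193, 213 and 189 TPM, and the list of these factors held 0.16% ± 0.0133 (SD, n = 6) of the TPM. WRKY6 was at 205, 184, 192, 159, 125 and 169.9 TPM and was higher in cold (log2 difference 0.90, SE 0.18, adjusted p = 0.00738, limma with Benjamini-Hochberg adjustment). NAC002 was at 96.1, 100, 77.4, 70.3, 146 and 61.9 TPM and was also higher in cold (log2 difference 1.80, SE 0.26, adjusted p = 0.00174, limma). The WRKY, NAC and MYB list held 0.396 to 0.452% in the 6 control libraries. ERF003 was at 0.35, 76.1, 18.8, 7.05, 64 and 7.99 TPM, high in a library of day 2 and of day 6, and lower in cold (log2 difference -2.88, SE 0.87, adjusted p = 0.0355, limma).

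Detoxifying glutathione S-transferases held 0.306, 0.392, 0.244, 0.247, 0.387 and 0.165%, lowest in day 6 replicate 3, and were led by GSTU8 at 617, 855, 478, 619.6, 729.8 and 310.4 TPM. GSTU8 was higher in cold (log2 difference 1.29, SE 0.29, adjusted p = 0.0109, limma). A gene matched to the lipid transfer protein DIR1, a carrier of systemic defence signals in Arabidopsis, was at 93.2, 591, 401, 356, 663 and 173 TPM and lower in cold (log2 difference -1.90, SE 0.54, adjusted p = 0.0284, limma). GASA14, a small gibberellin-regulated protein, was at 121, 607, 256, 382, 311 and 237 TPM. None of these genes was called over days at 20 °C.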
